A study of Drosophila melanogaster with 5 samples.

Results

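The nuclear genes of the mitochondrial respiratory chain were followed in the blood of larvae that misexpress the Hox gene abd-A. They were found by FlyBase symbol and made up 84 of the 17807 genes in the table. Symbols that begin with ND- gave complex I, SdhA to SdhD gave complex II, UQCR- gave complex III, COX gave complex IV, and ATPsyn gave complex V, the ATP synthase. Genes of the mitochondrial genome were left out. Of the 84 genes, 63 are single subunit genes, with 34 in complex I, 4 in complex II, 6 in complex III, 8 in complex IV and 11 in complex V. The other 21 carry the name of another subunit followed by L and are called L-type paralogs here. There are 6 of them for complex I, 3 for complex III, 8 for complex IV and 4 for complex V. The search by symbol misses subunits with other names (levy, cype, blw, sun, NdufV3, NdufA3, RFeSP, Cyt-c1 and ox), and these are given with the neighbouring pathways.

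Hemolymph was pelleted and its RNA sequenced in 2 control libraries, genotype Cg-Gal4>CS, and in 3 libraries of the genotype Cg-Gal4>UAS-abd-A. Each pool held the blood of 20 larvae aged 96 to 102 h. Both groups carry the Cg-Gal4 driver, which is active in the fat body as well as in blood cells, and the wild-type stock of the study was Canton-S. The sex of the larvae was not given in the sources used here, and nothing said how the replicate pools were drawn, so p-values measure only the spread between these libraries.

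The chain sits in the inner mitochondrial membrane. Complex I takes electrons from NADH and complex II takes them from succinate, complex III hands them to cytochrome c, and complex IV passes them to oxygen. Complexes I, III and IV pump protons, and complex V makes ATP from the proton gradient. Complex II is built from nuclear genes alone, while the other complexes combine nuclear subunits with a few made from the mitochondrial genome. In Drosophila several nuclear subunits have a second gene copy, and many of these copies are known for expression in the testis. Circulating blood cells of the larva are plasmatocytes, which engulf particles, crystal cells, which serve melanization, and lamellocytes, which are few in healthy larvae and wrap large foreign bodies.

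Total counts on genes were 1252969 and 2567624 in the control libraries and 3848911 to 4959111 in the abd-A pools. These totals are far below the number of reads that the paper reports for each sample, and the reason was not tested. The strand setting of the counting was not given in the sources used here. It bears on the levels of all genes, not only of those that overlap another gene. The targeted gene abd-A had 0 and 21 counts in control pools and 620, 474 and 638 counts in the abd-A pools. Even numbers made up 57.3% to 68.8% of the counts from 1 to 50. Whether both reads of a pair were counted was not given in the sources used here. If they were, a count stands for less than 1 fragment, and folds bounded by the floor of 3 counts are too large. Genes annotated as antisense RNA held 15.9% and 16.4% of the counts in controls against 8.53% to 11.1% in abd-A libraries. The cell make-up of the pellets differed as well. Levels are given as CPM, the count scaled to the size of its library (TMM), and comparisons between genes also per kilobase (kb) of exon. All 9 lamellocyte markers were upregulated, with a summed level of 1253 and 1704 CPM in controls and 19512 to 22642 CPM in abd-A libraries, whereas 6 of 8 plasmatocyte markers and 4 of 4 crystal cell markers were downregulated. Markers of fat body were downregulated for 6 of 7 genes and those of muscle for 8 of 9, and the summed fat body level was 2771 CPM in control replicate 1 against 22776 CPM in control replicate 2 and 507 to 1653 CPM in abd-A libraries. The part of these cells in the results below was not tested.

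Transcripts of the nuclear chain were higher in the abd-A pools in all 5 complexes. A gene was called upregulated or downregulated at an adjusted p under 0.05 (edgeR quasi-likelihood test, Benjamini-Hochberg over 11624 genes) and at least a 2-fold change. Of the 63 single subunit genes, 62 had the 10 counts over the 5 libraries that the test required, and 36 of these were upregulated and 0 downregulated. The count of lower genes was also 0 at an unadjusted p under 0.05 in edgeR. The DESeq2 Wald test and limma-voom each called 0 of the 62 downregulated. Over all genes tested, 11.0% were upregulated and 12.7% downregulated. At an adjusted p under 0.05 with any fold, the count among the 62 was 37, against 12.7% of all genes. On the log2 scale the median change of the 62 was 1.36, and that of all genes was -0.17. For 52 of the 62 each abd-A library was above both controls, which held for 27.3% of all genes, while 56.6% of all genes had groups that did not overlap in either direction. These are pelleted cells in bulk, and more cells rich in mitochondria cannot be told apart from more transcript per cell.

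**Figure D1:**
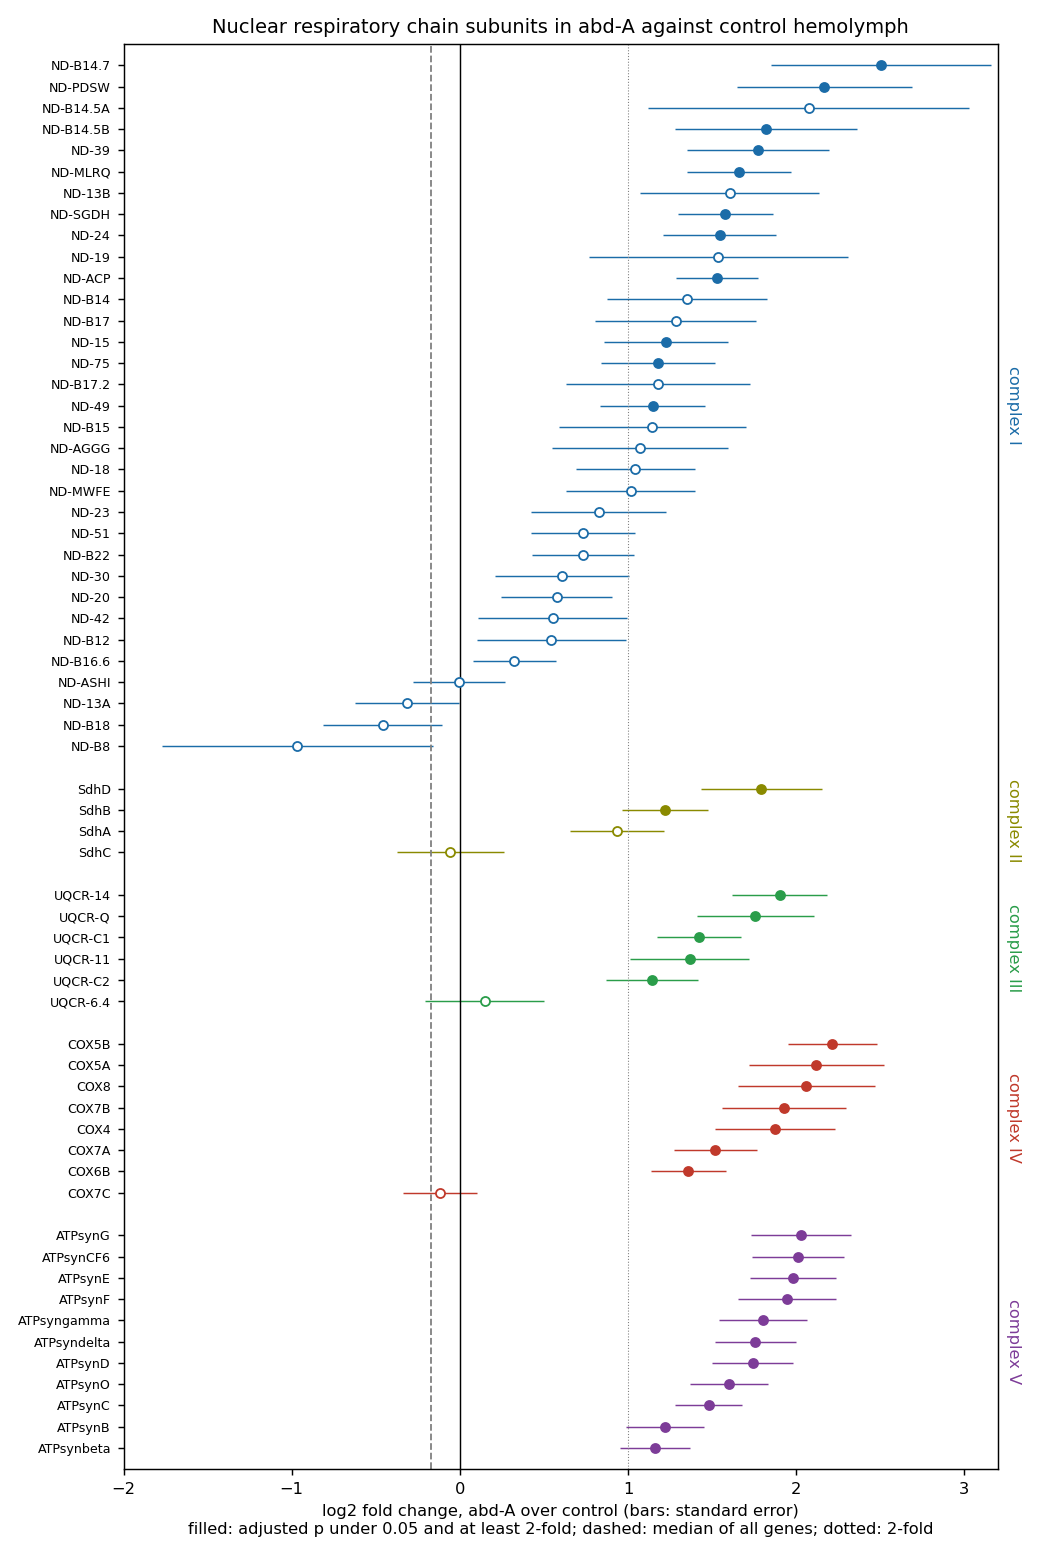
Log2 fold change of abd-A over control on the horizontal axis for the 62 single subunit genes tested, grouped by complex, with standard errors as bars. Filled points are the 36 upregulated genes. All 11 points of complex V are filled, and 6 genes lie below 0, of which 4 belong to complex I.

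Read as a share of each library, the 63 genes held 0.341% and 0.285% of counts in control pools and 0.654%, 0.641% and 0.656% in the abd-A pools. The control share was thus lower than each abd-A share by more than the gap between the controls. By complex, the ratio of the mean summed CPM in abd-A libraries to that in controls was 1.83 for complex I, 2.03 for complex II, 2.46 for complex III, 2.70 for complex IV and 2.79 for complex V. ATPsynC and ATPsynbeta were the most abundant members, and without both of them the ratio over the remaining genes was 2.32. An exact permutation test of such a sum, with 2 controls and 3 abd-A libraries, cannot give a p below 0.1.

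**Figure D2:**
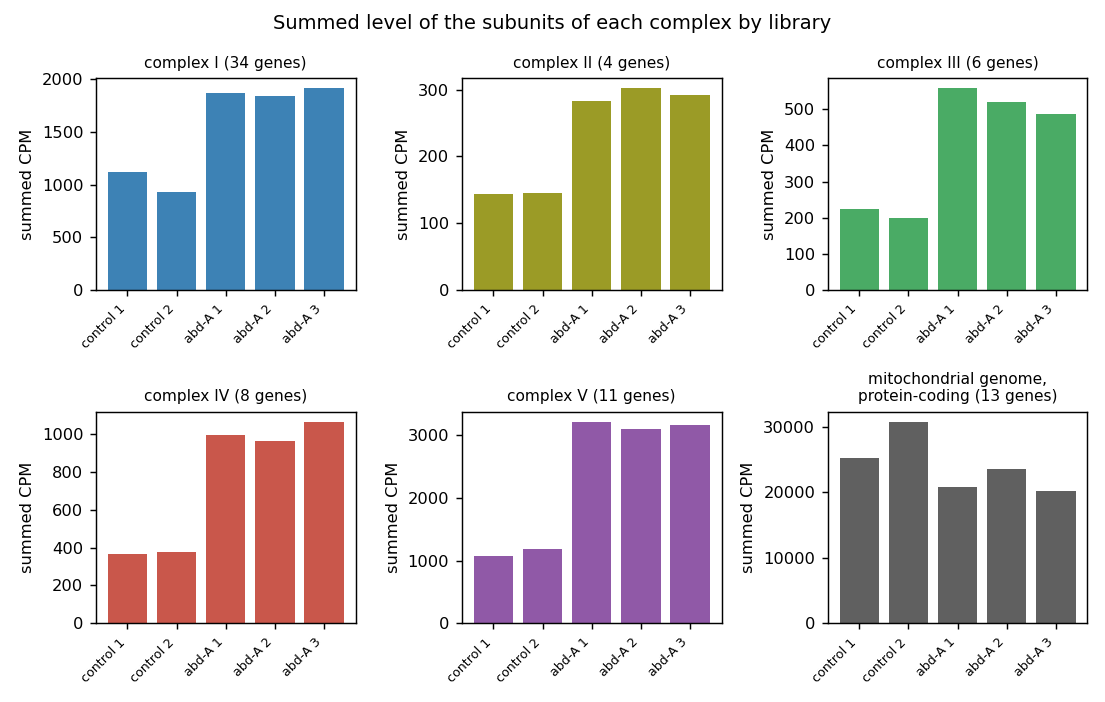
Summed CPM of the nuclear subunit genes of each complex, and of the 13 protein-coding genes of the mitochondrial genome, as 1 bar for each library, each axis starting at 0. In complexes I to V each abd-A bar is above both control bars, and for the mitochondrial genome each is below both.

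Complex I, the entry point for NADH, was the most mixed. Of 33 genes tested, 11 were upregulated. On the log2 scale the median was 1.15 and the values ran from -0.97 to 2.50. Its core subunits carry the flavin, the iron-sulfur clusters and the ubiquinone site, and 3 of 7 core genes were upregulated, with a log2 median of 0.83. They were ND-24 at 1.55, ND-75 at 1.18 and ND-49 at 1.15. Of the 26 accessory genes tested 8 were upregulated, with a median of 1.20. A further 10 accessory genes had a log2 fold change of at least 1 without passing the test. Of the 17 complex I genes tested without exon overlap on the other strand, 9 were upregulated, all 17 lay above 0 and the log2 median was 1.28. Of the 11 sharing at least 50 exon bases with a gene on the other strand, 2 were upregulated and 7 lay above 0. Their median was 0.73 and their counts are uncertain. Over all genes tested, 11.4% were upregulated without overlap and 9.57% with it. The part of overlap in the mix was not tested.

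The complex I gene with the largest fold change was ND-B14.7, a membrane accessory subunit (2R, 21025078 to 21026086, dm6). It had 1.37 and 12.4 CPM in the controls and 34.0, 45.8 and 47.7 CPM in the abd-A pools. The groups did not overlap, and the controls rested on 2 and 32 counts. Its log2 fold change was 2.50 with a standard error (SE) of 0.65 (edgeR adjusted p = 0.0213). ND-PDSW, another accessory subunit of the membrane arm, had 4.12 and 14.7 CPM against 37.1, 43.6 and 53.2 CPM, and its log2 fold change was 2.17 with an SE of 0.52 (edgeR adjusted p = 0.0143). ND-B14.5A followed with 0 and 8.92 CPM in the controls and 19.2, 21.2 and 21.3 CPM in the abd-A pools, but at a log2 fold change of 2.08 its SE was 0.95 and its edgeR adjusted p 0.133. ND-MLRQ, whose mammalian counterpart has been assigned to complex IV, was the member of this group with the highest level per kilobase of exon in abd-A libraries (193 CPM per kb). It had 39.8 and 26.4 CPM in the controls and 114, 83.1 and 114 CPM in the abd-A pools, a log2 fold change of 1.66 with an SE of 0.31 (edgeR adjusted p = 0.00441).

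Among complex I genes that did not rise, ND-ASHI was the most abundant, with 216 and 118 CPM in the controls and 152, 176 and 169 CPM in the abd-A pools. The abd-A values lay between those of the 2 controls, and the log2 fold change was -0.0035 with an SE of 0.27. ND-B18 had a log2 fold change of -0.46 and ND-B8 one of -0.97, neither past the test, and ND-B8 rested on 15 to 30 counts in a library. ND-MNLL, an accessory subunit, had 0 counts in every library. All of its exon bases lie within CG45089, a gene on the same strand that also had 0 counts, so its level cannot be read here.

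Complex I was also where single libraries mattered most. Its control values differed from each other by a median of 0.92 on the log2 scale (pseudocount 1 CPM), compared with 0.17 for complex V, and 16 of its 33 genes had more than a 2-fold gap between the controls. The median of the mean control counts was 41.0 for complex I and 102 for complex V, and the median standard error of the log2 fold change was 0.40 and 0.24. Without abd-A replicate 1, 2 or 3 the number of upregulated complex I genes was 3, 4 and 3, and without control replicate 1 or 2 it was 17 and 14. ND-ACP, the mitochondrial acyl carrier protein, ND-SGDH and ND-MLRQ were upregulated under each of the 17 alternative fits, and ND-B14.7 and ND-PDSW lost the call when any abd-A library was left out.

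Complex II, which is also an enzyme of the TCA cycle, had 4 genes, of which 2 were upregulated. SdhD, a membrane anchor (3R, 23759483 to 23760600), had 13.7 and 29.5 CPM in the controls and 78.4, 72.7 and 79.2 CPM in the abd-A pools. Its log2 fold change was 1.79 with an SE of 0.36 (edgeR adjusted p = 0.00646). SdhB, the iron-sulfur subunit, had 38.5 and 41.5 CPM against 88.1, 91.3 and 101 CPM, a log2 fold change of 1.22 with an SE of 0.26 (edgeR adjusted p = 0.00799). Without abd-A replicate 3 the adjusted p of SdhB was 0.058. SdhA, the flavoprotein that oxidizes succinate, passed the test at less than 2-fold, with a log2 fold change of 0.94 (SE 0.28, edgeR adjusted p = 0.0356). Without abd-A replicate 1, 2 or 3 its adjusted p was 0.106, 0.146 and 0.105.

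SdhC, the other membrane anchor, stood apart from the rest of complex II. It had 40.5 and 33.7 CPM in the controls and 39.3, 34.6 and 32.8 CPM in the abd-A pools, and the groups overlapped. The log2 fold change was -0.06 with an SE of 0.32. No gene on either strand shares exon bases with SdhC (3R, 11208887 to 11209849).

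In complex III 5 of 6 genes were upregulated, and the log2 median was 1.39. UQCR-Q (3L, 17474761 to 17476124), a small subunit, had 17.9 and 14.7 CPM in the controls and 49.2, 65.9 and 49.4 CPM in the abd-A pools, which gave a log2 fold change of 1.76 with an SE of 0.35 (edgeR adjusted p = 0.00598). UQCR-C1 and UQCR-C2, the large core proteins that face the matrix, had log2 fold changes of 1.42 and 1.14 with SEs of 0.25 and 0.27. UQCR-C2 was upregulated in 7 of 17 alternative fits. Without any single abd-A library, or without control replicate 2, 3 of the 6 genes were upregulated, and the calls lost were those of UQCR-C2 and UQCR-11.

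Overlapping genes limit what can be read from 2 members of complex III. UQCR-14 had the largest value, a log2 fold change of 1.90 with an SE of 0.28, from 24.7 and 27.2 CPM in the controls and 114, 90.4 and 88.3 CPM in the abd-A pools. All of its exon bases, however, lie within CG32576 on the other strand, which had 1202 and 1083 counts in control pools and 4846 to 5320 in the abd-A pools, so the counts of UQCR-14 are uncertain. UQCR-6.4, the gene that did not rise, had 50.1 and 28.3 CPM in the controls and 51.2, 39.8 and 38.1 CPM in the abd-A pools, a log2 fold change of 0.15 with an SE of 0.35. It shares 227 exon bases with POSH on the other strand.

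Complex IV, cytochrome c oxidase, had 7 of 8 genes upregulated and a log2 median of 1.90, and the 7 kept the call under all 17 alternative fits. COX5B (2L, 6557800 to 6559308), which lies on the matrix side of the enzyme, had 35.7 and 28.7 CPM in the controls and 131, 154 and 161 CPM in the abd-A pools. The lowest abd-A value was over 3 times the higher control. Its log2 fold change was 2.22 with an SE of 0.26 (edgeR adjusted p = 0.000451), the smallest adjusted p among the members. COX5A, its neighbour in the enzyme, had 19.9 and 56.2 CPM against 165, 143 and 202 CPM, a log2 fold change of 2.12 with an SE of 0.40 (edgeR adjusted p = 0.00488). COX8, a small membrane subunit, had 9.62 and 15.9 CPM against 70.6, 50.1 and 42.6 CPM, a log2 fold change of 2.06 with an SE of 0.41. COX4, COX6B, COX7A and COX7B were upregulated with log2 fold changes of 1.36 to 1.93.

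COX7C was the exception and had the highest control level per kilobase of exon in complex IV (138 CPM per kb). It had 117 and 118 CPM in the controls and 103, 102 and 121 CPM in the abd-A pools. The values of the groups overlapped, and the log2 fold change was -0.12 with an SE of 0.22. COX7C shares 134 of its exon bases with oys on the other strand.

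Complex V was the most even group. All 11 genes were upregulated, with log2 fold changes of 1.16 to 2.03, adjusted p-values of 0.000684 to 0.00494 by the edgeR quasi-likelihood test, and a median of 1.76. ATPsynC (3R, 31216145 to 31219630), which forms the ring that turns as protons pass, was the most abundant member. It had 398 and 393 CPM in the controls and 1122, 1074 and 1109 CPM in the abd-A pools. The spread within each group was small beside the gap, and the log2 fold change was 1.48 with an SE of 0.20. ATPsynbeta (chromosome 4, 1031484 to 1034917), the catalytic subunit, had 337 and 408 CPM in the controls and 839, 837 and 825 CPM in the abd-A pools, a log2 fold change of 1.16 with an SE of 0.21 (edgeR adjusted p = 0.00361). Under upper-quartile scaling and library totals its log2 fold change was 0.99 and 0.98, under 2-fold.

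Genes of both the head and the membrane part of the enzyme were upregulated. The F1 head holds the catalytic sites. The 3 of its genes found by symbol, ATPsynbeta, ATPsyngamma and ATPsyndelta, had a log2 median of 1.76. The alpha and epsilon subunit genes, blw and sun, are given with the neighbouring pathways. The 8 genes of the membrane part and the outer stalk had a median of 1.85. ATPsynG had 17.9 and 25.6 CPM in the controls and 85.4, 94.8 and 89.8 CPM in the abd-A pools, the largest value of complex V at a log2 fold change of 2.03 (SE 0.30). ATPsynCF6 of the outer stalk and ATPsynE of the membrane part followed at 2.01 and 1.98. ATPsynB, also of the outer stalk, was the lowest of the 8 at 1.22. ATPsyndelta shares 1358 exon bases with CG2962 on the other strand, but CG2962 had 4 to 38 counts in a library where ATPsyndelta had 60 to 696.

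The balance between complexes differed between the groups. Summed counts of complex V divided by those of complex I were 0.955 and 1.28 in the controls and 1.72, 1.68 and 1.65 in the abd-A pools. For complex IV over complex I the values were 0.326 and 0.409 against 0.531, 0.524 and 0.556. In both ratios the groups did not overlap, and 0.1 is the smallest p that an exact permutation test allows. Part of the complex I sum lies in genes that overlap a gene on the other strand. ND-ASHI and ND-B16.6 had 216 and 140 CPM of 1125 in control replicate 1 and 118 and 104 of 927 in control replicate 2. In the abd-A pools they had 152 to 176 and 135 to 180 CPM, of 1838 to 1914. Complex II over complex I gave 0.128 and 0.157 in the controls and 0.152, 0.164 and 0.153 in the abd-A pools, and here the groups overlapped.

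Transcripts of the mitochondrial genome did not follow those of the nucleus. The 13 protein-coding genes summed to 25241 and 30697 CPM in the controls and 20813, 23516 and 20191 CPM in the abd-A pools, and their log2 median was -0.29. By the edgeR test 0 of the 13 genes were upregulated, as in DESeq2 and limma-voom, with 1 at an unadjusted p under 0.05. By the same test 2 were downregulated, mt:ND2 and mt:ND6, and limma-voom and the replicate block called neither. Without control replicate 2, 1 gene was upregulated and 3 downregulated. For mt:ND6 the levels were 269 and 53.9 CPM in the controls and 44.9, 59.1 and 31.9 CPM in the abd-A pools, and neither gene was called without control replicate 1 or without any single abd-A library. mt:ND3 had a log2 fold change of 0.69 (SE 0.22, edgeR adjusted p = 0.044), under 2-fold.

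Within a library, counts of the 63 nuclear genes divided by counts of the 13 mitochondrial genes were 0.116 and 0.0924 in the controls and 0.333, 0.286 and 0.343 in the abd-A pools. This ratio does not depend on the scaling between libraries. The mean was 0.104 ± 0.017 (SD, n = 2) in controls and 0.320 ± 0.030 (SD, n = 3) in abd-A libraries, a 3.07-fold difference. By complex the same ratio was 2.32-fold higher for complex I, 3.32-fold for complex III, 3.49-fold for complex IV and 3.23-fold for complex V.

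**Figure D3:**
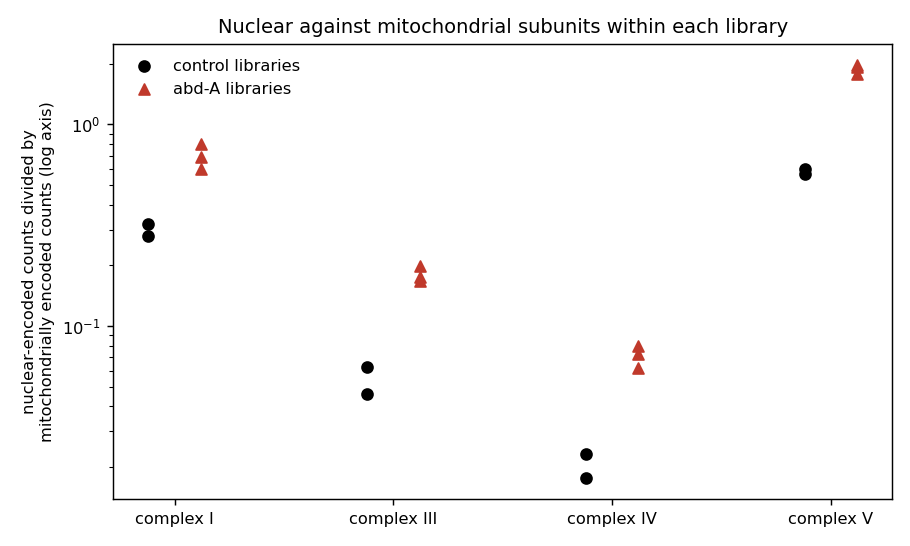
Counts of nuclear subunit genes divided by counts of mitochondrially encoded genes of the same complex, on a log axis, with 1 point for each library. In each of the 4 complexes with both kinds of subunit, the 3 abd-A points lie above the 2 control points.

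Overlap with genes on the other strand is given for all members because the library kit keeps strand and the strand setting of the counting was not given in the sources used here. Among the 62 single subunit genes, 18 share at least 50 exon bases with a gene on the other strand. They are ND-13A, ND-15, ND-51, ND-ASHI, ND-B14, ND-B16.6, ND-B18, ND-B22, ND-B8, ND-MWFE, ND-SGDH, SdhB, SdhD, UQCR-14, UQCR-6.4, COX7C, ATPsynbeta and ATPsyndelta. Of these, 7 were upregulated and the log2 median was 0.87, with 13 of 18 above 0. Of the 34 genes without overlap 25 were upregulated, the median was 1.54 and 33 were above 0, SdhC being the exception. Over all genes tested, 9.57% were upregulated with such an overlap and 11.4% without any, and the medians were -0.21 and -0.22. Complex I held 11 of the 18 genes and 17 of the 34, so the classes differ in their make-up by complex. Of the 18 partner genes 5 had more counts than the member they overlap, namely CG32576, TppII, CG15237, CG34180 and Gs1l, the partners of UQCR-14, ND-MWFE, SdhB, ND-51 and ND-B8. POSH had 62 and 77 counts in control pools and 130 to 164 in the abd-A pools, and oys had 90 and 351 against 205 to 263.

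**Figure D4:**
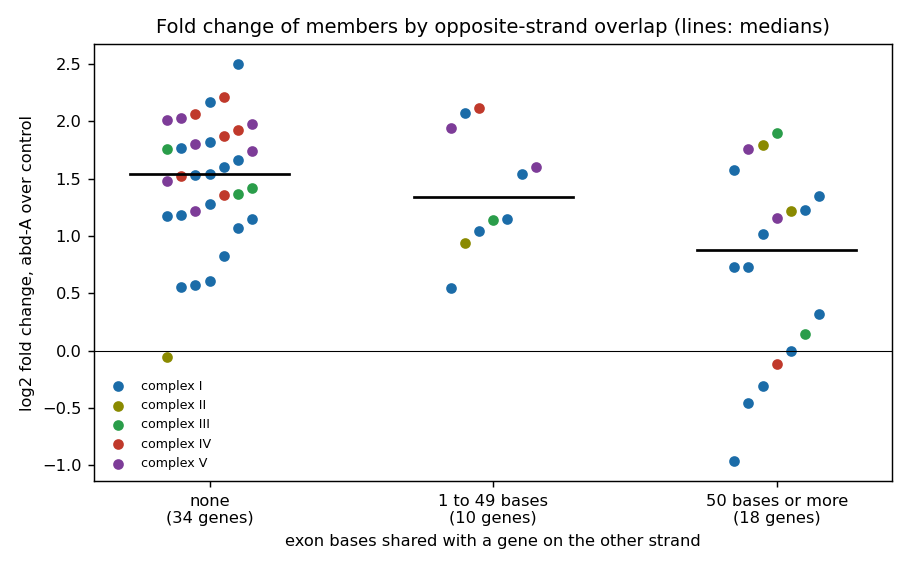
Log2 fold change of abd-A over control for the 62 single subunit genes, split by the exon bases shared with a gene on the other strand, with 1 point for each gene, coloured by complex, and the median of each class as a line. The medians are 1.54 without overlap, 1.34 for 1 to 49 bases and 0.87 for 50 bases or more, and 5 of the 6 genes below 0 are in the last class.

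The L-type paralogs had few counts. Of the 21 genes, 18 had any count, 13 had more than 3 counts in at least 1 library, and 10 had enough for the test. COX6AL, ND-20L and ND-24L had 0 counts throughout. Because most of the 10 passed the count filter through the controls, no summary over the tested genes is given. ATPsynepsilonL (3R, 10121773 to 10122320), the copy of the epsilon subunit gene sun, was the 1 member called downregulated. With 8 counts in abd-A libraries it passed the count filter through the controls, so the call is given as a description. It had 25 and 19 counts in control pools and 0, 2 and 6 counts in the abd-A pools, or 17.2 and 7.37 CPM against 0, 0.545 and 1.28 CPM. The log2 fold change was -4.24 with an SE of 1.37 (edgeR adjusted p = 0.0476). The call was lost without control replicate 1 (adjusted p = 0.163) and without any abd-A library (0.113, 0.139 and 0.075).

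Several other paralogs were read in controls and little in abd-A libraries. COX4L, the copy of COX4, had 6 and 10 counts in control pools and 0 in each abd-A library. It passed the count filter through the controls and was not called, so its values are given as a description. Its control mean was 5.64-fold above the abd-A floor of 3 counts a library. That figure does not allow for the error of 6 and 10 counts and is too large if both reads of a pair were counted. ATPsynbetaL had 32 and 11 counts against 10, 0 and 10, with a log2 fold change of -3.10 (SE 1.34, edgeR adjusted p = 0.114). ND-49L had 4 and 27 counts against 12, 1 and 3. The controls disagreed for some of them, since ND-51L2 had 14 and 0 counts and COX6CL 8 and 0. COX6AL2 had 2 and 8 counts against 0, 1 and 2, and it overlaps Prp6 on the other strand and Ir75d on its own. UQCR-11L had 8 and 2 counts against 0, 1 and 0, and UQCR-14L 4 and 2 against 0. ATPsynCF6L, ATPsynGL, COX7AL2, ND-51L1, ND-B14.5AL and UQCR-6.4L never exceeded 4 counts.

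The paralog share of a pair falls where the counterpart alone rises, and most counterparts were upregulated. Many paralogs also had their counts mainly in the controls. No matching share over all genes was computed, so no count of pairs is given. Some pairs rest on very few counts. ND-51L1 had 2 and 2 counts in control pools and 1, 2 and 0 in the abd-A pools. COX5BL and UQCR-14 lie within genes on the other strand, so their pairs are uncertain. Per kilobase of exon, ATPsynepsilonL made up 38.9% and 40.2% of the level of the pair with sun in the controls and 0% to 1.26% in the abd-A pools. COX4L made up 10.1% and 19.9% of its pair with COX4 in the controls and 0% in the abd-A pools.

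The 3 paralogs with the most counts in abd-A pools, chosen after their values were seen, lie beside their counterparts on the chromosome. Between COX7CL and COX7C on 2R lie 281 bases, between COX5BL and COX5B on 2L 122 bases, and between COX7AL and COX7A on 3R 2625 bases, and of the other pairs on 1 chromosome none was closer than 489920 bases. COX7CL had 19 and 12 counts in control pools and 90, 103 and 58 counts in the abd-A pools, with a log2 fold change of 1.22 (SE 0.66, edgeR adjusted p = 0.194). It was 18.9% and 7.57% of its pair in the controls and 28.9%, 36.5% and 17.6% in the abd-A pools. Only the fit without control replicate 1 called it upregulated. COX5BL had 29 and 16 counts against 35, 39 and 28, a log2 fold change of -0.66 (SE 0.75). Its share of the pair was 38.6% and 19.6% in the controls and 6.29%, 7.23% and 4.00% in the abd-A pools, and all of its exon bases lie within Trmt6 on the other strand. COX7AL had 0 and 4 counts against 1, 21 and 14. How alike the copies are in sequence was not analysed here, and where reads match both copies of a pair the values are uncertain.

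**Figure D5:**
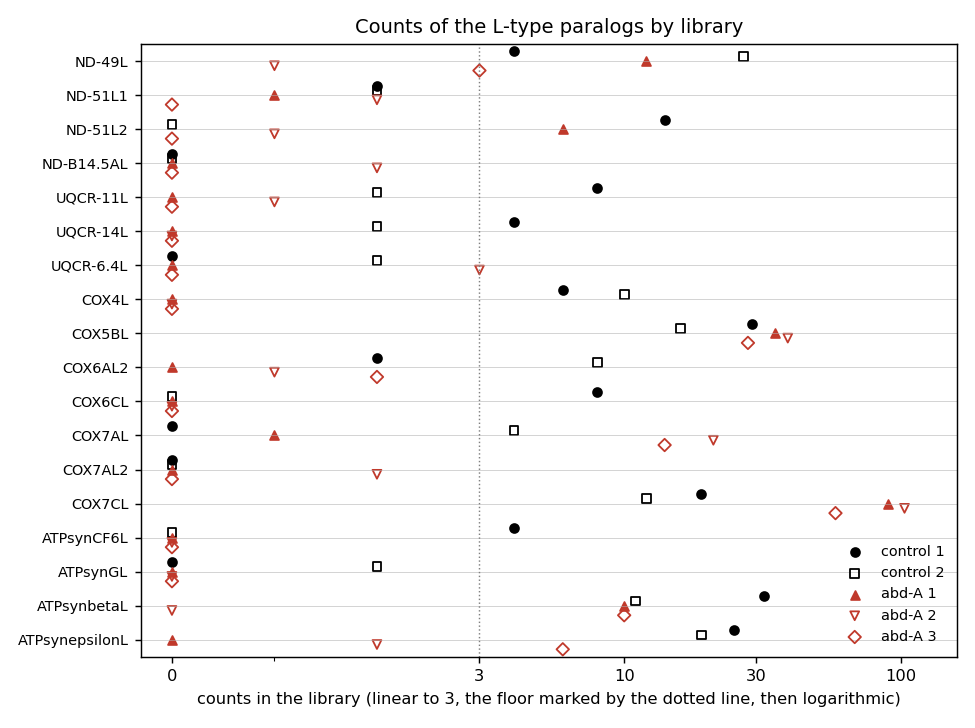
Counts of the 18 L-type paralogs with any count, with 1 symbol for each library (black for controls, red for abd-A) on an axis that is linear up to 3 counts and logarithmic above. COX7CL, COX5BL and COX7AL reach 14 counts or more in an abd-A library, while COX4L has red symbols at 0 only.

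Testis markers were also lower in summed level in abd-A libraries. Of 20 marker genes, 9 had 0 counts in all 3 abd-A libraries, and since many passed the count filter through the controls no count of calls is given. Their summed level was 303 and 125 CPM in the controls and 18.8 to 26.8 CPM in the abd-A pools. The 19 paralogs other than COX5BL and COX7CL summed to 74.9 and 34.5 CPM in the controls and 6.71 to 9.81 CPM in the abd-A pools. Control replicate 1 was thus the higher control in both, and the part of testis RNA in the paralog counts was not tested.

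Genes that work beside the members were read from lists by name. Of 6 subunits that FlyBase holds under other symbols, 4 were upregulated. The gene cype, a complex IV subunit, had 10.99 and 8.15 CPM in the controls and 64.8, 61.0 and 80.4 CPM in the abd-A pools, a log2 fold change of 2.86 with an SE of 0.36 (edgeR adjusted p = 0.000589). The alpha subunit of the ATP synthase, blw, had a log2 fold change of 1.23, sun 2.21 and levy 1.01, and the call of levy was lost under 14 of the 17 alternative fits. The complex I subunits NdufV3 and NdufA3 had 2.03 and 2.19 but edgeR adjusted p-values of 0.0836 and 0.0948.

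Among 8 further chain components, 6 were tested and 4 were upregulated. Cyt-c-p, the general cytochrome c, had 76.9 and 38.0 CPM in the controls and 289, 296 and 338 CPM in the abd-A pools, with a log2 fold change of 2.44 (SE 0.32). Cyt-c-d, the cytochrome c known from the male germ line, had 8.93 and 12.8 CPM in the controls and 7.38, 2.45 and 3.83 CPM in the abd-A pools. The groups did not overlap, and the log2 fold change was -1.25 with an SE of 0.86 (edgeR adjusted p = 0.305). Of the 837 exon bases of Cyt-c-d, 305 are shared with a gene on the other strand. It ends at 16719635 on 2L, where Cyt-c-p starts at 16719932, so its values are uncertain. RFeSP, the Rieske protein of complex III, had a log2 fold change of 1.39, and Cyt-c1 and ox, also of complex III, 1.12 and 1.19. Without abd-A replicate 3, RFeSP and Cyt-c-p alone were called. SdhAL, a copy of SdhA, had 0 counts.

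Of 7 carriers and channels 2 were upregulated. The ADP/ATP carrier sesB had 734 and 810 CPM in the controls and 1823, 1915 and 1821 CPM in the abd-A pools, a log2 fold change of 1.26, and the outer membrane channel porin had 1.24. Of 14 genes of assembly and of mitochondrial DNA upkeep, 12 were tested and 1 was downregulated, with a log2 median of 0.24. In edgeR 0 were upregulated, with 0 at an unadjusted p under 0.05 and 0 in DESeq2 and limma-voom, but without control replicate 1 there were 2. With 12 genes these counts are read against the 11.0% and 12.7% of all genes, and nothing particular to the list is drawn from them. CIA30 and mtTFB2 were at 1.18 and 1.52, with edgeR adjusted p-values of 0.202 and 0.236. Among factors of complex IV assembly held in another list, Cox10 was at 1.06, Cox11 at 1.86 and Cox17 at -0.16, with edgeR adjusted p-values of 0.0691, 0.143 and 0.887. The gene that fell was Sirup, an assembly factor of complex II, with 65.3 and 143 CPM in the controls and 5.81, 16.3 and 22.3 CPM in the abd-A pools and a log2 fold change of -2.82 (SE 0.52, edgeR adjusted p = 0.0044). TFAM, which packages mitochondrial DNA, had a log2 fold change of -0.62 with an SE of 0.32, not past the test.

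In the TCA cycle, which feeds the chain, 8 of 16 genes were upregulated and 1 downregulated, with a log2 median of 1.01. The citrate synthase gene kdn had 180 and 160 CPM in the controls and 409, 387 and 401 CPM in the abd-A pools, a log2 fold change of 1.23. The aconitase mAcon1 had 1.69 and Pdhb of pyruvate dehydrogenase 2.14, while mAcon2, the second aconitase gene, had 126 and 4 counts in control pools and 0, 1 and 0 in the abd-A pools. Without abd-A replicate 1 or 2 the number of upregulated genes was 3 and 5, and without control replicate 1 mAcon2 was not called.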

How the data were processed

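The authors checked reads with FastQC 0.11.7, mapped them to dm6 with STAR 2.5.2 and counted them on genes with HTSeq 0.11.2, and the counts they deposited are raw, with 1 column for each library. The strand setting, counting mode and annotation release were not given in the sources used here. Members and lists were chosen with earlier results of these data known.

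Of the 17807 gene identifiers, 17710 were found in the Ensembl annotation BDGP6 (dm6 coordinates), from which symbols, positions and exon overlaps were taken. Genes with at least 10 counts over the 5 libraries (11624) were fitted with edgeR 4.0.16 (TMM scaling, quasi-likelihood F-test, R 4.3.3) in 1 model without covariates, with Benjamini-Hochberg adjustment. The standard error is the fold change divided by the square root of F. Levels are CPM with TMM scaling. Counts of 3 or less were taken as the floor, which is 2.06 and 1.16 CPM in the controls and 0.638 to 0.817 CPM in the abd-A libraries. Floors cover counting error only. The fit was run on simulated counts drawn with its own estimated spread, with changes planted only in genes well above the count filter. That run cannot show how the fit performs on uneven controls or on paralogs with few counts. Tables were made with Python 3.11.15 and pandas 2.3.3.

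Genes named are, for each complex, the most abundant, the 3 highest and the 2 lowest by fold change with a mean of at least 20 counts, all paralogs with counts, members with at least 50 overlapped bases and called genes of the lists. Other genes that are named (ND-24, ND-75, ND-49, ND-ACP, ND-SGDH, ND-MLRQ, ND-MNLL, COX4, COX7A, COX7B, UQCR-11, ATPsyngamma, Cyt-c-d, SdhAL, TFAM, NdufV3, NdufA3, CIA30, mtTFB2, Cox10, Cox11, Cox17, mt:ND3, srl and ewg) were chosen after their values were seen. Of the list names, Pcb and hale-bopp matched no gene.

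Alternatives were DESeq2 1.42.0 size factors and its Wald test, scaling by upper quartile or library total, TMM computed after removing the 20 genes with most counts, 3 further filters, limma-voom (limma 3.58.1), a replicate block, each library left out, members without overlap, and members without L-type paralogs. Halving of counts and removal of antisense genes were chosen after seeing the data. Promoter and protein sequences were not analysed here.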

Additional observations from a re-analysis of the deposited data

How the results depend on the processing

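Upregulated members numbered 36 with all libraries and TMM scaling, and 25 to 44 over all alternatives, with 39 when counts were halved, 36 without antisense genes and 25 among the 41 tested members without opposite-strand overlap. The number past the adjusted p alone was 25 to 48. Leaving out 1 library gave 25 to 44, the lowest without abd-A replicate 3 and the highest without control replicate 1. Without control replicate 2, the control with higher counts of fat body markers, 37 members were upregulated when 21.0% of all genes were, and 32 of the 36 calls were shared.

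The 1 downregulated member, ATPsynepsilonL, was joined by another under no count filter, filterByExpr, the DESeq2 Wald test and limma-voom, which gave 2 each with or without the fold threshold. The count was 0 with at least 10 counts in every library, under the replicate block and with L-type paralogs left out, and it was 0 to 2 when 1 library was left out.

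The median log2 fold change of the 72 tested members was 1.23. It was 1.07 with DESeq2 size factors, 1.05 with upper-quartile scaling, 1.03 with library totals, 1.14 with at least 10 counts in every library, 1.07 in the Wald test, 1.34 in limma-voom, 1.34 under the replicate block, 1.30 with counts halved, 1.17 without antisense genes, 1.48 for members without overlap, 1.36 without L-type paralogs and 1.23 to 1.33 with 1 library left out. The other scalings moved the median of all genes from -0.17 to between -0.32 and -0.36. A scaling moves all genes alike, so the distance of the single subunit genes from it stayed at 1.52 to 1.53. That distance was 1.19 with at least 10 counts in every library, 1.24 without control replicate 2, 1.35 with filterByExpr and 1.68 with no count filter.

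Genes near 0 changed sign. UQCR-6.4 was at -0.012 with DESeq2 size factors, -0.036 with upper-quartile scaling, -0.067 with library totals, -0.0015 with at least 10 counts in every library, -0.015 in the Wald test, and -0.24 to 0.59 with 1 library left out. ND-ASHI was at 0.10 in limma-voom, 0.036 under the replicate block and -0.40 to 0.48 with 1 library left out. With 1 library left out COX5BL ran from -1.32 to 0.38, ND-B8 from -1.60 to 0.024 and SdhC from -0.21 to 0.067. The cause was not tested. Of the other comparisons of named genes with an alternative, 540 kept direction and side of the threshold, 27 lost the call and 9 gained it.

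Same-numbered libraries deviated from their group means with correlations of 0.018 and -0.0022. With 2 controls the deviations of one mirror those of the other, so these values are not independent. They cannot decide whether the replicate number pairs the libraries. With the number as a replicate block 27 members were upregulated, when 7.46% of all genes were. Depth limits the L-type paralogs, of which 11 had under 10 counts in all.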

Other observations

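Glycolysis, the other route to ATP, was mixed. Of 13 genes, 3 were upregulated and 1 downregulated, when 11.0% and 12.7% of all genes were. The median log2 fold change was 0.36. The 3 were Gapdh2, with 55.6 and 177 CPM in the controls and 529, 583 and 589 CPM in the abd-A libraries and a log2 fold change of 2.27, PyK at 1.39 and Eno at 1.13. Pfk, the enzyme of the committed step, had 57.7 and 38.8 CPM in the controls and 20.6, 26.2 and 17.2 CPM in the abd-A libraries, a log2 fold change of -1.17 (standard error 0.36, edgeR adjusted p = 0.0412), and lost the call without control replicate 1 or any abd-A library. Without control replicate 1 the median of the glycolysis genes was -0.016, and without control replicate 2 it was 0.98 with 5 genes upregulated.

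Of 8 regulators linked to mitochondria or growth, 1 was upregulated, when 11.0% of all genes were. Nothing particular to the list is drawn from this count. The gene was foxo, with 56.3 and 91.2 CPM in the controls and 164, 161 and 198 CPM in the abd-A libraries and a log2 fold change of 1.23 (standard error 0.27, edgeR adjusted p = 0.0101), and without control replicate 1 or without abd-A replicate 1 or 3 it was not called. The PGC-1 homologue srl had a log2 fold change of 0.56 and ewg, the homologue of mammalian NRF-1, one of -0.60, neither past the test. Across the 62 single subunit genes, Spearman's rho between log2 fold change and exon length was -0.28 and with mean counts 0.20. Over 11565 genes the same values were -0.0035 and 0.49. These are correlations across genes within the same 5 libraries, and genes are not independent replicates.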
